A study of Mus musculus with 12 samples.

Results

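The replication-dependent histone genes are the mouse genes whose symbols begin with Hist1h, Hist2h, Hist3h or Hist4h, and the rule found 67 of them among the 32285 genes of the count tables. They comprised 6 linker H1 genes, 18 H2A genes, 18 H2B genes, 12 H3 genes and 13 H4 genes. Together they held 114137 of 122182983 unique molecular identifiers (UMIs), a share of 0.0934%. A UMI is a tag that marks 1 captured RNA molecule. Single cells were taken from the hippocampus of 9-week-old female C57/BL6J mice and sequenced by the 10x Genomics 3' method. The 4 groups of 3 libraries were PBS without stimulation (PBS nonstim), PBS with stimulation (PBS stim), cisplatin without stimulation (Cisplatin nonstim) and cisplatin with stimulation (Cisplatin stim). Cisplatin is a platinum drug that crosslinks DNA and was injected to model the cognitive effects of chemotherapy, and controls were injected with PBS, phosphate-buffered saline. Stimulation was 1 h a day of 40 Hz light and sound (GENUS) for 21 days, begun on the first day of injection. Tissue was taken on day 22, and the sources used here give no cisplatin dose. Replicate 1 of each group came from 1 animal and carries the library prefix D20, and replicates 2 and 3 came from 2 pooled animals each and carry the prefix D21. A cell type name is the authors' own annotation.

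Histones package DNA. H2A, H2B, H3 and H4 form the core of the nucleosome, and H1 binds the linker DNA between nucleosomes. The replication-dependent genes lie in clusters, mostly lack introns and are transcribed in S phase, when new DNA must be packaged. Their messenger RNAs are known for ending in a short stem-loop bound by the protein SLBP in place of a poly(A) tail. The NPAT protein drives their transcription, and the U7 small nuclear ribonucleoprotein takes part in cutting their 3' ends. Some of these genes also yield polyadenylated transcripts in cells that have left the cycle. The 10x 3' method primes on poly(A), so the counts here are of molecules that the primer could reach. The replication-independent histone variants, such as H3f3b, are separate genes with ordinary poly(A) tails.

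The stem-loop is printed for members whose counts are described below, since it is the feature that defines these messages and it groups the members by class. Sequences were read from the GENCODE M21 transcripts (build GRCm38, also called mm10), in which all 67 members were found. The motif GGNNNTTNTNANNNCC, searched on the transcript strand, was present in 46 of the 67 members and in 3.81% of 58797 protein-coding transcripts of other genes. Capitals mark the 16 bases of the stem-loop, with up to 5 flanking bases on each side in lower case.
Hist1h4d: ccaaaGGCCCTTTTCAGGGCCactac
Hist1h4h: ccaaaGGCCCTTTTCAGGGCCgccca
Hist1h4i: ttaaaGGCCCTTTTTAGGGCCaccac
Hist1h1e: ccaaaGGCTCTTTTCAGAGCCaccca
Hist1h1c: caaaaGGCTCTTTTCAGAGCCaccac
Hist2h2aa1: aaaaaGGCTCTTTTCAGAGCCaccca
Hist1h2ap: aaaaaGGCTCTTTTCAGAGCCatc
Hist1h3e: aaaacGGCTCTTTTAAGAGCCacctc
The stem-loop of Hist1h4d was at chr13:23581950-23581965 on the + strand, and that of Hist1h4h at chr13:23531458-23531473 on the + strand. The Hist1h1e stem-loop was at chr13:23621782-23621797 on the - strand, that of Hist1h1c at chr13:23739512-23739527 on the + strand and that of Hist2h2aa1 at chr3:96246032-96246047. Of the 46 members with the motif, 26 shared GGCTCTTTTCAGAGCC, and these were linker H1, H2A, H2B and H3 genes. Another 7 shared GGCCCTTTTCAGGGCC and were all H4 genes. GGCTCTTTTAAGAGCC was found in 6 members, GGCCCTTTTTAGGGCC in 2 and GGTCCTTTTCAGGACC in 2, the last 2 forms in H4 genes alone. The letters of the stem thus separated the H4 genes above from the H1, H2A and H3 genes.

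The annotated transcripts differed in how far they run beyond the stem-loop. Hist1h1e ran on for 1153 bases, Hist1h1c for 840, Hist1h4d for 770 and Hist1h3e for 369, whereas Hist1h4h ended 46 bases after it, Hist2h2aa1 after 35 and Hist1h2ap after 3. With a limit of 100 bases, chosen after the values were seen, 23 members ran past it and held 45.5% of the members' UMIs, with a median of 594 UMIs a gene. The 23 members that ended within 100 bases held 14.4%, with a median of 81 UMIs. The 21 members with no stem-loop in their annotated transcript held 40.1%, nearly all from Hist1h2bc. Hist1h2bc, an H2B gene at chr13:23684199-23692908 on the + strand, was 1 of only 4 members annotated with 2 exons (with Hist1h2be, Hist1h2bq and Hist1h2br). Of the 67 members, 54 lay on chromosome 13, 10 on chromosome 3, 2 on chromosome 11 and 1 on chromosome 6.

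Between 611 and 2772 cells and 3964338 and 17656020 UMIs came from each library, 19834 cells in all. The histone share of all UMIs was 0.0540 to 0.0615% in the 4 D20 libraries and 0.0831 to 0.126% in the 8 D21 libraries. Ribosomal RNA-like transcripts (Gm42418, AY036118 and Lars2) made up 1.87 to 3.65% of UMIs in the 4 D21 PBS libraries, 0.417 to 0.782% in the 4 D21 cisplatin libraries and 0.340 to 0.542% in the D20 libraries. So the D21 PBS libraries stood apart from all others in this measure, with no overlap. The median mitochondrial share of a cell was 10.7 to 17.6% in D20 and 3.19 to 5.12% in D21. Of the barcodes, 56 occurred in more than 1 library (112 cells). Nearly all marker genes were highest in the type they mark, the exceptions being S100b, highest in ependymal cells, Slc6a13, highest in pericytes, Cd79a, highest in endothelium, and Itgae, highest in fibroblasts. A D21 library pools 2 animals and a D20 library holds 1, so the spread between libraries is not the spread between animals.

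A few members carried most of the signal. Hist1h2bc, which encodes an H2B, had 43164 UMIs, 82.8% of its class, and the H2B class held 45.7% of all member UMIs. Linker H1 genes held 20.4%, led by Hist1h1c with 14900 UMIs and Hist1h1e with 6840. H4 genes held 16.6%, led by Hist1h4d with 7643, Hist1h4h with 6387 and Hist1h4i with 2313. H2A genes held 14.7%, led by Hist3h2a with 5093, Hist1h2ap with 4087 and Hist2h2aa1 with 3716. H3 genes held 2.58%, led by Hist1h3e with 779, Hist2h3c1 with 594 and Hist2h3c2 with 526. A 3' method counts transcript ends, so these totals were not divided by length, and they compare captured molecules rather than messages per gene. At the other end, 28 members had under 100 UMIs, and Hist1h2aa, Hist1h2ba and Hist1h2bq were at 0 in 19834 cells, which allows a share of cells with a UMI of up to 0.0151% each (3 cells, counting error only).

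Many members resemble each other, so reads can be split between copies or lost. In 40 of the 67, more 31-base words of the transcript occurred in another gene's transcripts than did not, where a word is a run of letters. The fraction shared was 1.0 for Hist2h3c1, 0.934 for Hist1h2ap, 0.897 for Hist2h2aa1, 0.844 for Hist1h3e, 0.642 for Hist2h3c2 and 0.5 for Hist1h4h, and the values of these 6 genes are uncertain in that respect. A 3' method counts transcript ends, however. Over the last 300 bases the fraction was 1.0 for Hist2h3c1, Hist1h2ap and Hist2h2aa1 but 0.0 for Hist2h3c2, whose shared words lie further upstream. It was 0.147 for Hist1h4d, 0.114 for Hist1h1c and 0.326 for Hist1h2bc. Hist1h1e stood at 0.347 over the whole transcript but at 1.0 over its last 300 bases, so its values are uncertain too. In those bases it overlaps Hist1h2be and Gm11398 on the same strand. Hist2h2aa1 and Hist2h3c1 overlap Gm20634, and Hist3h2a overlaps Trim17, so reads there could be assigned to either gene.

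Progenitors, precursor cells that include dividing ones, had the highest median share of histone UMIs. Levels are given in CPM, the UMIs of the gene or class per 1000000 UMIs of that cell type in a library, over libraries with at least 10 cells of the type. The median over libraries of all members together was 2906 CPM in progenitors (6 libraries), 1805 in choroid plexus, 1470 in ependymal cells (9 libraries), 778 in oligodendrocytes, 744 in oligodendrocyte precursors (OPC), 739 in astrocytes, 628 in fibroblasts (3 libraries), 558 in endothelium, 543 in microglia, 499 in pericytes, 415 in immune cells and 328 in neurons. The progenitor libraries ranged from 1073 to 12688 CPM and the choroid plexus libraries from 1160 to 2689, so these neighbours overlapped. Of the 6 progenitor libraries 4 were D21 PBS libraries, and the 3 fibroblast libraries were all D21 cisplatin libraries, so these medians cover unlike groups. From oligodendrocytes to immune cells the ranges of neighbouring types overlapped throughout, from 369 to 923 in oligodendrocytes, 153 to 1055 in microglia and 190 to 1014 in immune cells.

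**Figure D1:**
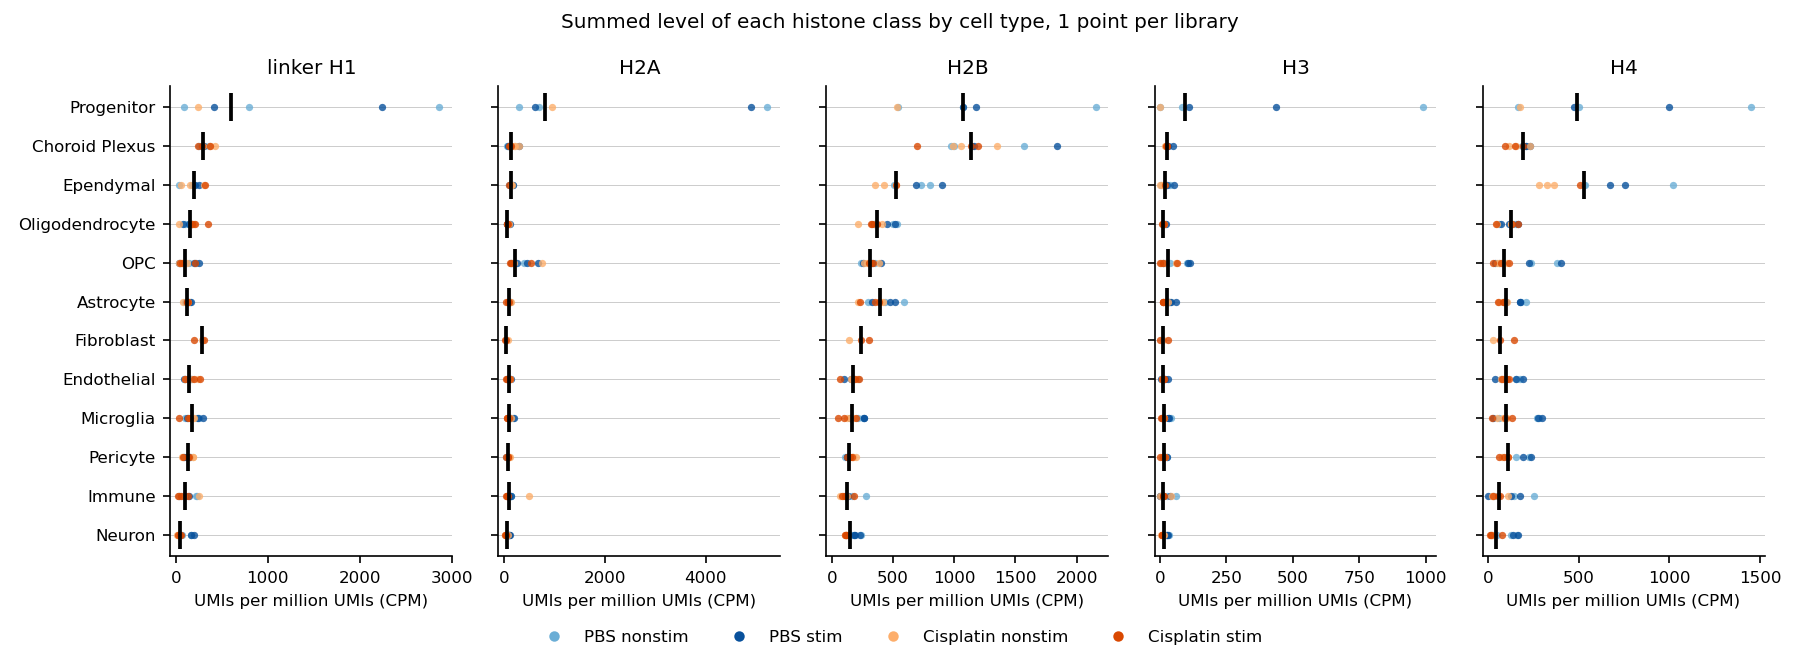
Summed CPM of linker H1, H2A, H2B, H3 and H4 genes (panels) in each library (points) of the 12 annotated cell types, with a bar at the median. H2B was highest in choroid plexus (median 1138 CPM), H4 in ependymal cells (528), and H1, H2A and H3 in progenitors (604, 820 and 94.5).

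The classes did not follow the same order. H2B was highest in choroid plexus, with a median of 1138 CPM (692 to 1842), followed by progenitors with 1070 and ependymal cells with 523. That level came from Hist1h2bc, with a median of 1111 CPM in choroid plexus (681 to 1783), 452 in ependymal cells (296 to 735) and 69.3 in neurons. H4 was highest in ependymal cells, with 528 CPM (280 to 1018), where Hist1h4h had 303 (163 to 718) and Hist1h4i 126 (63.6 to 177). Hist1h4i was nearly absent from oligodendrocytes, with a median of 1.3 CPM. H2A was highest in progenitors, with 820 CPM (289 to 5224), then OPC with 222, and lowest in fibroblasts with 47.9. Progenitor libraries held few cells, and their widest ranges belonged to genes such as Hist1h2ap (41.3 to 2969 CPM) and Hist1h1b (0 to 1224).

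The H2A and H2B genes of the Hist3 cluster had a pattern of their own. Hist3h2ba had a median of 492 CPM in progenitors (119 to 610), 169 in OPC (122 to 207), 102 in oligodendrocytes and 62.2 in neurons, but 2.5 in microglia, 3.7 in endothelium and 0.7 in choroid plexus. Its neighbour Hist3h2a had 296 CPM in progenitors (82.5 to 381) and 87.6 in OPC (67.1 to 119), and stayed between 19.98 and 53.0 in the 9 other types measured for it. Thus Hist3h2ba, unlike Hist1h2bc, was near 0 in choroid plexus and microglia and present in cells of the neuronal and oligodendrocyte lineages. Among the linker genes, Hist1h1c was highest in choroid plexus, with 251 CPM (185 to 391), and Hist1h1e in progenitors, with 378 (0 to 963). Hist1h1b was detected mainly in progenitors, with a median of 47.6 CPM, and had a median of 0 in 6 types including neurons and oligodendrocytes. Of the H3 genes, Hist1h3e was highest in progenitors with 38.1 CPM (0 to 269), Hist2h3c1 in astrocytes with 8.86 (3.87 to 23.3) and Hist2h3c2 in choroid plexus with 12.7 (7.32 to 19.9). Hist2h2aa1 reached 86.9 CPM in choroid plexus (19.7 to 251), and Hist1h2be, an H2B gene, 46.0 in ependymal cells (19.5 to 84.9).

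Cells that carried a UMI of Mki67 or Top2a, genes of dividing cells, were then set beside cells of the same type that carried none. These are pooled cells and a description with no test. In progenitors, H2A summed to 10638 CPM in the 21 cells with such a UMI and 677 in the 176 without, and in OPC to 2517 CPM in 53 cells and 162 in 841. In microglia the H2A values were 1219 CPM in 40 cells and 116 in 4490, and in immune cells 748 in 16 cells and 82.2 in 533. H2B differed far less, at 1914 against 1090 CPM in progenitors, 479 against 301 in OPC and 276 against 197 in microglia. The OPC values did not hold in the 1 library with at least 10 such OPC, PBS nonstim replicate 2. There H2A stood at 204 CPM in 11 cells with a UMI and 163 in 158 without, and H2B was the other way round, at 204 against 317. Oligodendrocytes did not show the pattern in the pooled cells, with H2A at 73.0 CPM in 114 cells with a UMI and 72.0 in 4563 without. Other classes in progenitors stood at 4515 against 617 CPM for H1, 1519 against 80.4 for H3 and 1961 against 448 for H4.

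**Figure D2:**
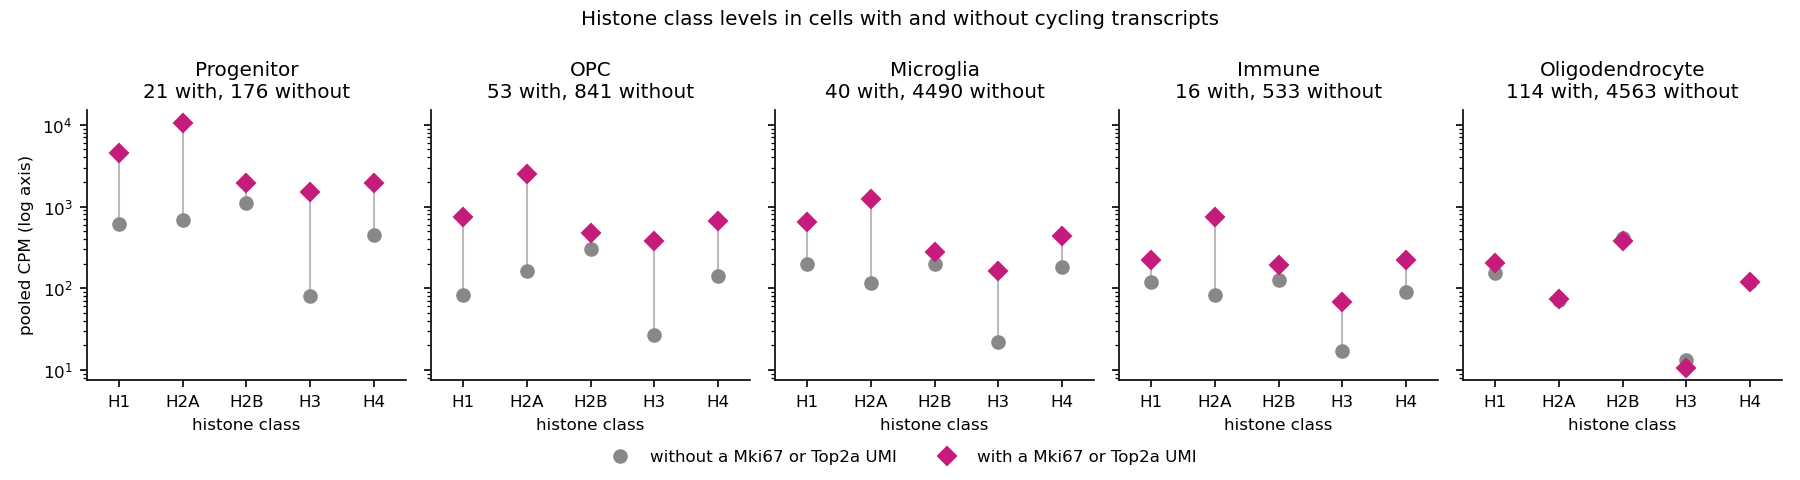
Pooled CPM (log axis) of each histone class in cells with and without a UMI of Mki67 or Top2a, in 5 cell types. H2A stands at 10638 against 677 CPM in progenitors and at 73.0 against 72.0 in oligodendrocytes.

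The difference was carried by particular members. Hist1h2ap had 5758 CPM in progenitors with a Mki67 or Top2a UMI and 151 in those without, 1465 and 30.0 in OPC, and 746 and 38.1 in microglia. Hist1h1b, the H1 gene known for its tie to dividing cells, had 2273 and 33.4 CPM in progenitors and 276 and 0.214 in microglia in the same order. Hist1h2bc was near level, at 515 and 448 CPM in progenitors, 127 and 101 in OPC and 134 and 166 in microglia. Hist3h2ba was lower in the cells with such a UMI, at 359 against 527 CPM in progenitors and 83.1 against 172 in OPC. So the most abundant member, Hist1h2bc, was not among those with a large difference in the pooled cells. Cells with a UMI were deeper in 2 of these types, with a median of 8377 against 3700 UMIs in progenitors and 9810 against 6104.5 in microglia, but not in OPC, at 5863 against 6057. Depth was not evened out, and its part in the class values was not tested.

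Cisplatin was compared with PBS in unstimulated mice, which asks what the drug did to each cell type. The genes that fell were mainly Hist1h4d, Hist1h4h and other H4 genes, the linker gene Hist1h1e, and low H2A and H3 genes, in microglia above all. UMIs were summed per library and cell type and tested with edgeR's quasi-likelihood test, with a term for the D20 and D21 sets and Benjamini-Hochberg adjustment over all genes of the type, and a call is an adjusted p under 0.05. In 9 types, 24 of the 67 members passed the filter on low counts at least once, giving 93 tests of a member in a type, and the other 43 were never tested. The filter keeps a gene that is high in 1 group alone, so the counts that follow describe those tests and not all members. Of the 93 tests, 15 were lower (16.1%) and 2 higher (2.15%) under cisplatin. Of all gene tests, 0.707% were lower and 0.937% higher. The median log2 fold change of the member tests was -0.284.

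Microglia, the resident macrophages of the brain, held 8 of the 15 lower calls, out of 18 members tested there. In that type 137 of 9903 genes were lower, or 1.38%. Hist1h4d, an H4 gene at chr13:23581598-23582735, had 28.1, 159 and 176 CPM in PBS nonstim replicates 1, 2 and 3 and 19.2, 40.5 and 34.2 in Cisplatin nonstim. The D20 pair differed little, at the start of each series, while the 2 D21 PBS libraries were both above every other one, and the groups overlapped through the D20 PBS library. The fit gave a 3.72-fold lower level (log2 fold change -1.90 ± 0.23 SE, edgeR adjusted p = 7.05e-05). Hist1h4h, at chr13:23531050-23531519, had 11.1, 48.4 and 45.8 CPM in PBS nonstim and 6.23, 10.2 and 7.17 in Cisplatin nonstim. All 3 cisplatin libraries lay below all 3 PBS libraries, and the fold was 4.42 (log2 fold change -2.14 ± 0.27 SE, edgeR adjusted p = 0.000100). Fewer cells that express a gene and less RNA per cell cannot be told apart in these sums.

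The linker gene Hist1h1e, at chr13:23620629-23622558 on the - strand, had 24.8, 100.01 and 113 CPM in PBS nonstim microglia and 17.3, 49.1 and 45.8 in Cisplatin nonstim. It was 2.11-fold lower (log2 fold change -1.08 ± 0.15 SE, edgeR adjusted p = 0.000392), and again the D20 PBS library lay among the cisplatin ones. The H3 gene Hist1h3e had 1.96, 16.8 and 17.7 CPM in PBS nonstim and 1.92, 1.88 and 4.41 in Cisplatin nonstim (log2 fold change -2.34 ± 0.39 SE, edgeR adjusted p = 0.00175). Here the D20 libraries were alike and the difference lay in D21. The other 4 lower calls in microglia were Hist1h4c, at -1.45 on the log2 scale, and the H2A genes Hist1h2ab at -3.02, Hist1h2ae at -1.53 and Hist2h2ac at -1.34. By contrast Hist1h1c, the most abundant linker gene, had 73.2, 107 and 113 CPM in PBS nonstim and 134, 136 and 134 in Cisplatin nonstim and was not called. Every cisplatin library lay above every PBS library here, whereas with stimulation the gene was called lower, as given below. The calls of Hist1h4d, Hist1h4h and Hist1h1e in microglia held without any 1 library, though DESeq2 did not call Hist1h4h (adjusted p = 0.0684). DESeq2 gave no adjusted p for the 5 other calls in this type. Without Cisplatin nonstim replicate 2 the calls of Hist1h3e (-1.54), Hist1h4c (-1.51), Hist1h2ab (-3.93), Hist1h2ae (-2.01) and Hist2h2ac (-1.69) were lost. The last 3 were also lost without PBS nonstim replicate 3 (-2.57, -1.19 and -1.28), Hist1h2ae and Hist2h2ac without Cisplatin nonstim replicate 3 (-1.19 and -1.03), and Hist2h2ac without PBS nonstim replicate 2 (-1.37).

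**Figure D3:**
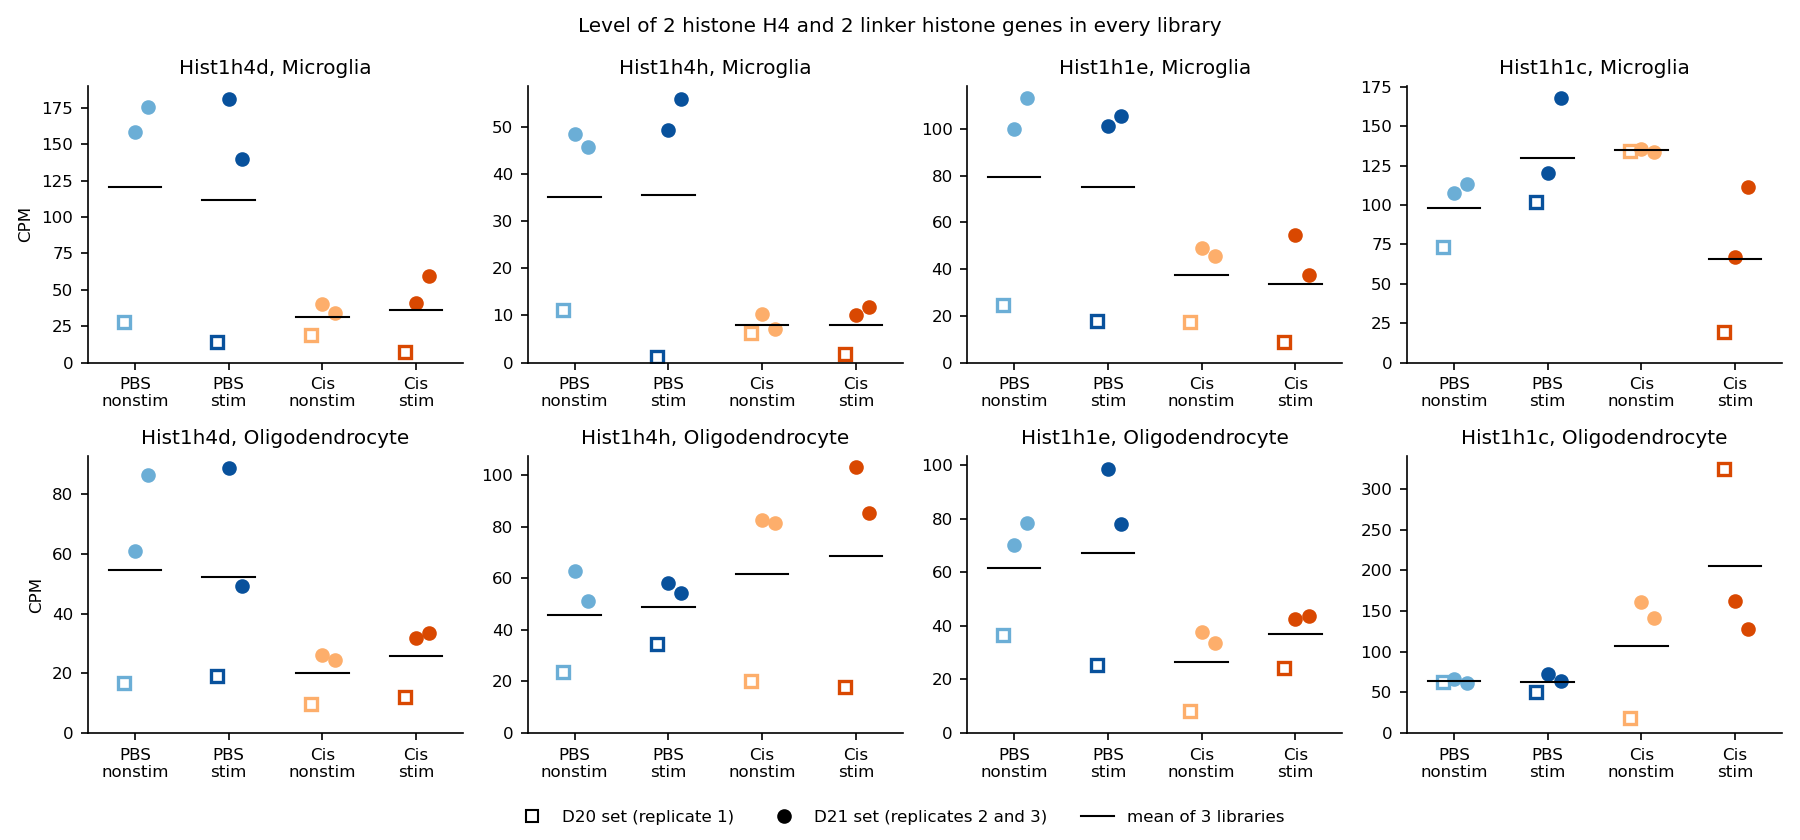
CPM of Hist1h4d, Hist1h4h, Hist1h1e and Hist1h1c in each library by group, in microglia and oligodendrocytes; open squares are D20 libraries, circles D21 libraries and lines group means. Hist1h4d and Hist1h1e are highest in the D21 PBS libraries of both types, and their D20 values are low in every group.

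Oligodendrocytes, the myelinating cells, had 3 lower calls among 13 members tested, where 2.92% of genes were lower and 3.33% higher. Hist1h1e had 36.4, 70.3 and 78.2 CPM in PBS nonstim and 8.21, 37.5 and 33.8 in Cisplatin nonstim (log2 fold change -1.22 ± 0.18 SE, edgeR adjusted p = 0.000446). Hist1h4d had 16.7, 61.1 and 86.5 CPM and 9.63, 26.2 and 24.6 in the same order (log2 fold change -1.38 ± 0.22 SE, edgeR adjusted p = 0.000983). Both groups overlapped for each gene, because the D20 PBS library was low. Hist1h2bc had 278, 393 and 366 CPM in PBS nonstim and 163, 274 and 264 in Cisplatin nonstim, a smaller difference of 1.45-fold in which the groups did not overlap (log2 fold change -0.53 ± 0.11 SE, edgeR adjusted p = 0.00639). Hist1h4h did not move with Hist1h4d in this type: it had 23.6, 62.6 and 51.4 CPM in PBS nonstim and 20.3, 82.4 and 81.5 in Cisplatin nonstim, and was not called. The H4 sum in oligodendrocytes was accordingly 117 to 162 CPM in D21 PBS and 126 to 163 in D21 cisplatin libraries, against 268 to 297 and 81.0 to 133 CPM in microglia.

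Hist1h4d and Hist1h1e were also lower in astrocytes (2 of 16 members, against 0.148% of genes) and OPC (2 of 11, against 0.0781%). In astrocytes, Hist1h1e had 15.9, 48.7 and 48.4 CPM in PBS nonstim and 7.73, 15.4 and 15.3 in Cisplatin nonstim (log2 fold change -1.55 ± 0.28 SE, edgeR adjusted p = 0.00704). Hist1h4d there had 28.04, 55.2 and 69.5 CPM and 23.2, 20.8 and 22.1 (log2 fold change -1.17 ± 0.23 SE, edgeR adjusted p = 0.0161). For both genes all 3 cisplatin libraries lay below all 3 PBS libraries. In OPC, the dividing precursors of oligodendrocytes, Hist1h4d had 40.8, 166 and 301 CPM in PBS nonstim and 22.1, 58.9 and 29.4 in Cisplatin nonstim (log2 fold change -1.89 ± 0.32 SE, edgeR adjusted p = 0.000799). OPC Hist1h1e had 25.3, 96.5 and 131 CPM and 22.1, 30.9 and 22.04 (log2 fold change -1.39 ± 0.32 SE, edgeR adjusted p = 0.0445). In OPC the D20 PBS library overlapped the cisplatin libraries for both genes. Without Cisplatin nonstim replicate 2 or 3 the calls of Hist1h1e (-1.41 and -1.43) and Hist1h4d (-0.93 and -1.01) in astrocytes and of Hist1h4d (-1.87 and -1.50) and Hist1h1e (-1.16 and -1.08) in OPC were lost. PBS nonstim replicate 3 was also needed for Hist1h4d in astrocytes (-1.01 without it) and Hist1h1e in OPC (-1.19), and PBS stim replicate 2 for the latter (-1.40). No member was called in choroid plexus, endothelium, neurons, immune cells or pericytes. Few genes of any kind were lower there: 0 of 7952 in choroid plexus, 32 of 8145 in endothelium and 0 of 6561 in neurons. In immune cells 0 of 2395 were lower, and in pericytes 6 of 6591. The median log2 fold change of the 6 members tested in neurons was -0.74, against -0.92 in microglia, so a missing call does not show an unchanged level.

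The 2 members that rose were H2A genes. Hist2h2aa1, an H2A gene, had 11.6, 14.4 and 8.09 CPM in oligodendrocytes of PBS nonstim mice and 29.97, 45.2 and 31.1 in Cisplatin nonstim, with no overlap (log2 fold change 1.70 ± 0.32 SE, edgeR adjusted p = 0.00359). The call was lost without Cisplatin nonstim replicate 2 (1.39). The gene is highest in choroid plexus, where it had 77.7, 32.2 and 19.7 CPM and 251, 153 and 172 in the same groups and was not called. The 7 choroid plexus markers summed to 17.8 to 432 CPM in oligodendrocytes of PBS nonstim and 219 to 1640 CPM in those of Cisplatin nonstim, against 40553 to 237059 CPM in choroid plexus itself, and their part in the result was not tested. Hist1h2ap had 31.1, 25.6 and 101 CPM in OPC of PBS nonstim and 64.9, 516 and 51.4 in Cisplatin nonstim (log2 fold change 2.16 ± 0.47 SE, edgeR adjusted p = 0.0225). Replicate 2 of Cisplatin nonstim was far above the others, and without that library (log2 fold change 0.78), without PBS nonstim replicate 2 (1.45), or without cells carrying a Mki67 or Top2a UMI, the gene was no longer called. There were 2, 11 and 3 such OPC in PBS nonstim and 8, 1 and 1 in Cisplatin nonstim.

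The falls under cisplatin were in the median smaller in the D20 pair than in the fit, and the ribosomal RNA-like share differed by treatment in D21. For all 15 lower calls the 2 D21 cisplatin libraries lay below both D21 PBS libraries, and all 15 were called in the D21 libraries alone, from which the calls had in part been made. Neither count was made over all genes called lower, so neither can be read as particular to the histone genes. In the D20 pair, which was also part of the fit, all 15 pointed the same way, but the median log2 ratio was -0.52, against -1.45 in the fit. The ribosomal RNA-like share of microglia was 1.55 to 3.04% in D21 PBS, 0.324 to 0.542% in D21 cisplatin and 0.251 to 0.421% in D20 libraries. In oligodendrocytes it was 1.49 to 3.07%, 0.318 to 0.581% and 0.284 to 0.394% in that order. With this share as a covariate 0 of the 15 lower calls were kept. Within D21 the share separated PBS from cisplatin without overlap, so the loss of a call cannot tell the share from the treatment. Without the 4 D21 PBS libraries each PBS group kept 1 library, so only fold changes are given here for that setting. Some fold changes stayed near the fit and others shrank. In oligodendrocytes the log2 value of Hist1h1e was -1.22 in the fit, -1.13 with the covariate and -1.50 without those libraries, and that of Hist1h2bc was -0.53, -0.45 and -0.51. With the covariate Hist1h4d came to -0.087 in oligodendrocytes, -0.28 in microglia and -0.00096 in OPC, while Hist1h4h in microglia came to -1.38. Whether the share has a part in the histone values was not tested.

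**Figure D4:**
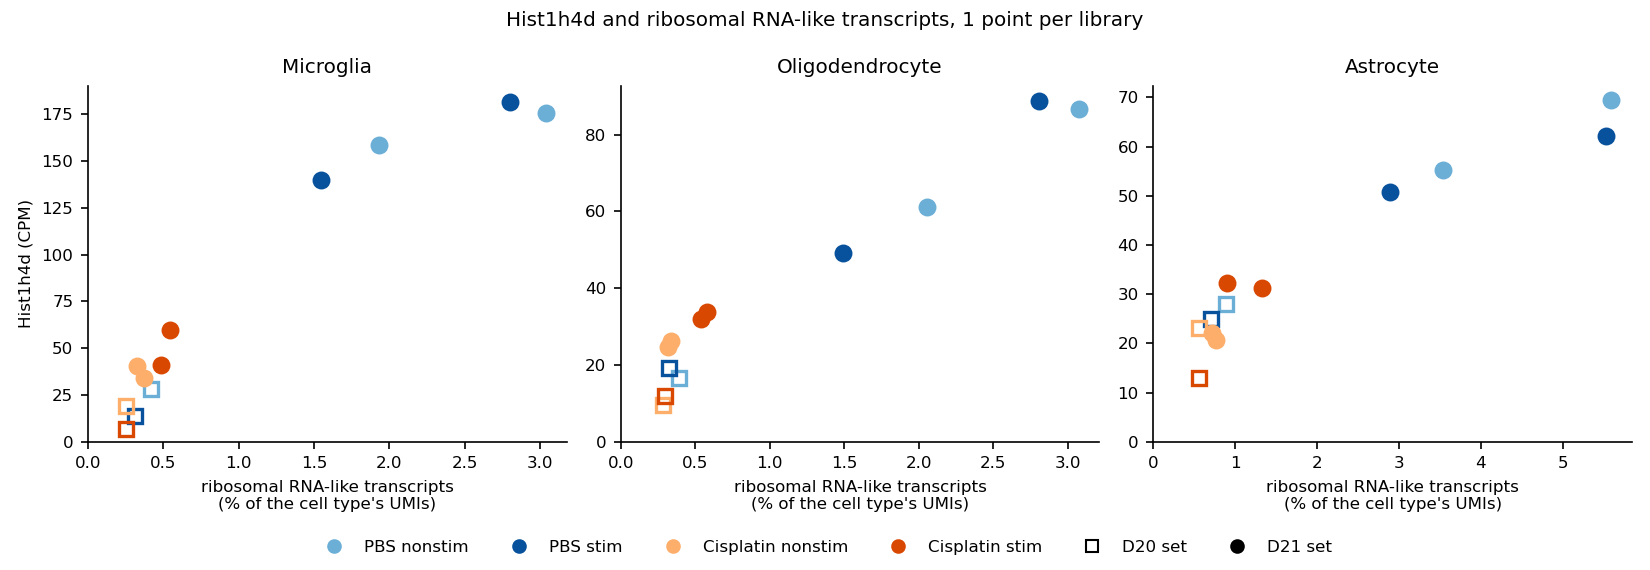
Hist1h4d CPM (y axis) against the ribosomal RNA-like share of UMIs in percent (x axis) for each library, in microglia, oligodendrocytes and astrocytes. The 4 D21 PBS libraries lie apart at the upper right in each type, and the other 8 lie at the lower left.

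The same comparison in stimulated mice used 6 other libraries. The genes that fell were again Hist1h4d, Hist1h4h, Hist1h1e and Hist1h2bc, joined by Hist1h2ap in microglia and astrocytes and a pair of H3 genes in astrocytes. Of the 93 member tests, 20 were lower (21.5%) and 2 higher (2.15%) in Cisplatin stim than in PBS stim. Of all gene tests, 1.73% were lower and 2.16% higher. The median log2 fold change of the member tests was -0.539. Of the 22 member and type pairs called here and the 17 called in unstimulated mice, 10 were the same pair, and all 10 were lower in both. These 10 are 58.8% of the 17 and 45.5% of the 22. The same overlap was not counted over all genes, so these shares cannot be read as particular to the histone genes. The 2 comparisons share no library, though they share the fit's spread and its term for the set.

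In microglia 10 of 18 members tested were lower, where 2.08% of all genes were. Hist1h4h had 1.27, 49.3 and 55.9 CPM in PBS stim and 1.76, 10.1 and 11.8 in Cisplatin stim (log2 fold change -2.20 ± 0.32 SE, edgeR adjusted p = 0.000247). Hist1h1e had 17.8, 101 and 106 CPM and 8.81, 54.4 and 37.6 (log2 fold change -1.19 ± 0.18 SE, edgeR adjusted p = 0.000336). In each case the D20 PBS library was low and the D21 PBS libraries high, as in unstimulated mice. Hist1h4d had 13.99, 181 and 139.98 CPM in PBS stim and 7.05, 41.2 and 59.5 in Cisplatin stim (log2 fold change -1.62 ± 0.25 SE, edgeR adjusted p = 0.000484). The H4 gene Hist1h4c had 3.82, 26.5 and 31.4 CPM and 3.53, 8.55 and 8.98 (log2 fold change -1.63 ± 0.30 SE, edgeR adjusted p = 0.00215). For Hist1h4h the D20 pair pointed the other way, though at under 2 CPM in both libraries. The other 6 microglial calls were Hist1h2ap at -1.99 on the log2 scale, Hist1h3e at -2.01, Hist2h2aa1 at -1.78, Hist1h1d at -1.48, Hist1h2bc at -0.87 and Hist1h1c at -0.84. The calls of Hist1h4h, Hist1h1e, Hist1h4d, Hist1h4c and Hist1h2ap held without any 1 library, though DESeq2 did not call Hist1h4h (adjusted p = 0.0735) or Hist1h4d (0.0525). Nor did it call Hist1h3e, Hist1h1d, Hist1h2bc or Hist1h1c (0.0533 to 0.122). Without Cisplatin stim replicate 2 those of Hist1h3e (-2.28), Hist2h2aa1 (-1.86), Hist1h1d (-1.40), Hist1h2bc (-0.66) and Hist1h1c (-0.73) were lost. Without PBS stim replicate 3 those of Hist1h3e (-1.88), Hist1h1d (-1.63), Hist1h2bc (-0.91) and Hist1h1c (-0.70) were lost, and without PBS stim replicate 2 those of Hist1h3e (-2.03), Hist1h1d (-1.12) and Hist1h2bc (-0.78). Cisplatin stim replicate 3 was needed for Hist1h3e (-1.80 without it), Hist2h2aa1 (-1.66) and Hist1h1d (-1.80), Cisplatin stim replicate 1 for Hist1h2bc (-0.70) and PBS nonstim replicate 3 for Hist1h1d (-1.47).

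**Figure D5:**
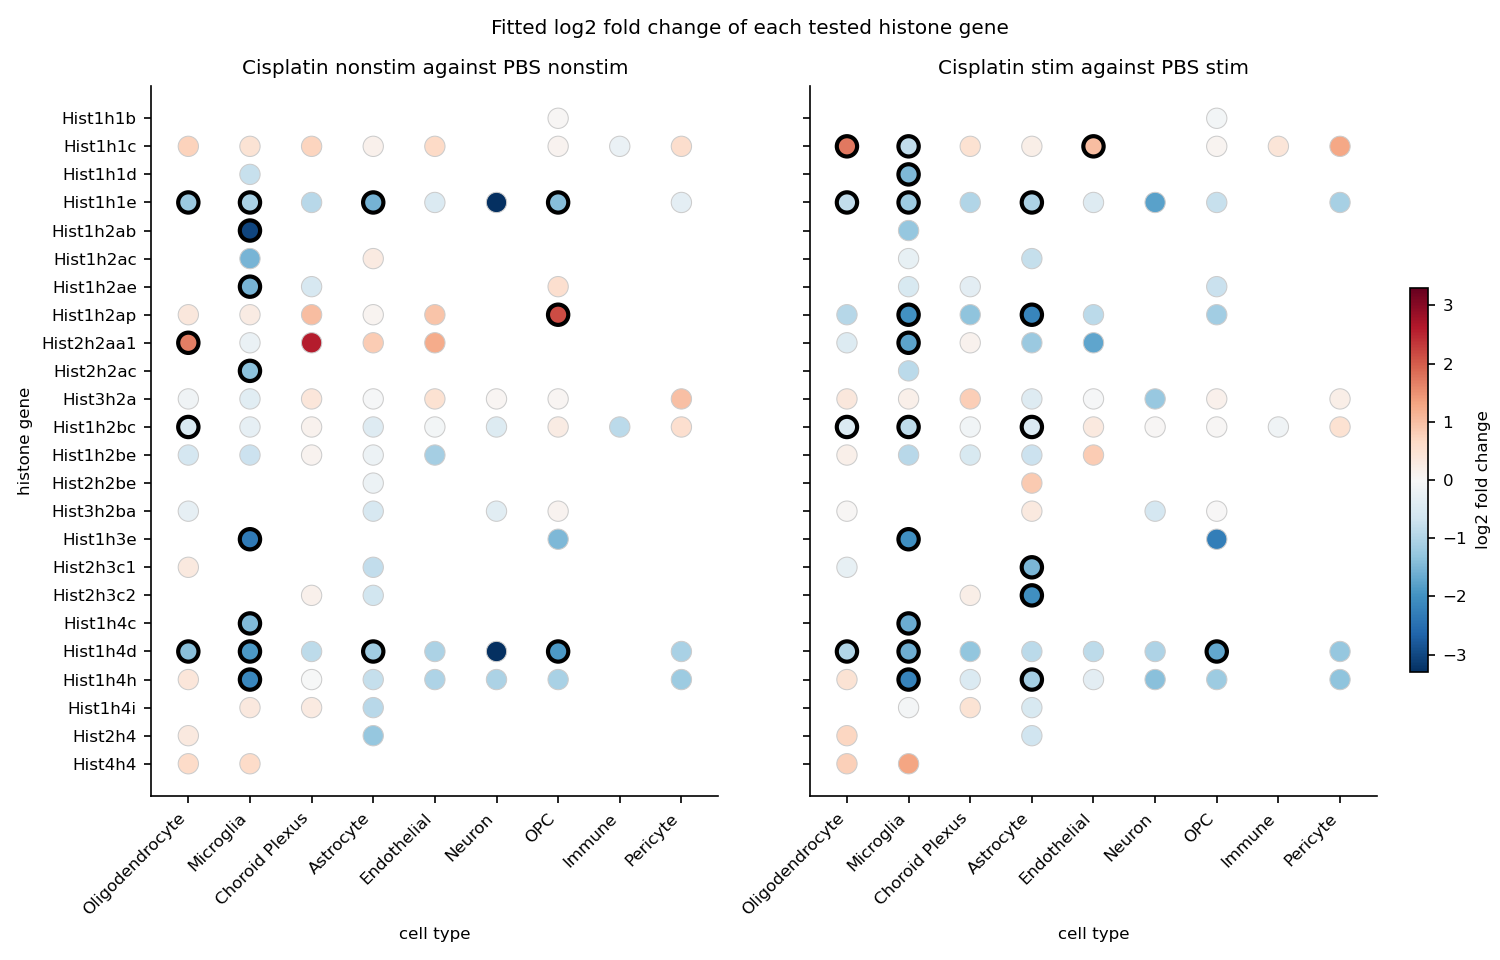
Log2 fold change of cisplatin against PBS for each tested member (rows) and cell type (columns), without and with stimulation, with calls outlined in black and the colour scale clipped at its ends. Lower calls gather in microglia, 8 of 18 members without and 10 of 18 with stimulation. No member is called in choroid plexus, neurons, immune cells or pericytes, where at most 20 genes of any kind are lower in either comparison.

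In astrocytes 6 of 16 members tested were lower with stimulation, where 1.22% of genes were. Hist1h4h had 31.9, 75.3 and 73.2 CPM in PBS stim and 19.5, 36.1 and 23.9 in Cisplatin stim (log2 fold change -1.12 ± 0.23 SE, edgeR adjusted p = 0.00500). The H3 gene Hist2h3c2 had 22.4, 7.68 and 17.2 CPM and 3.89, 2.58 and 4.60 (log2 fold change -2.02 ± 0.44 SE, edgeR adjusted p = 0.00921). Unlike the genes above, both H3 genes of the Hist2 cluster were as high in the D20 PBS library as in the D21 PBS libraries. Hist2h3c1 had 23.3, 13.1 and 15.5 CPM in PBS stim and 7.78, 3.87 and 5.52 in Cisplatin stim (log2 fold change -1.51 ± 0.35 SE, edgeR adjusted p = 0.0136). Hist1h2ap, an H2A gene, had 10.4, 9.99 and 12.9 CPM and 2.59, 3.87 and 0.921 (log2 fold change -2.17 ± 0.52 SE, edgeR adjusted p = 0.0176). For these last 3 genes no cisplatin library overlapped a PBS library, at counts of 8 to 62 UMIs a group. Astrocytic Hist1h1e (-1.04) and Hist1h2bc (-0.51) were the other 2 lower calls on the log2 scale. Hist1h4h was no longer called without Cisplatin stim replicate 3 (-0.82). Hist2h3c2, Hist2h3c1 and Hist1h2ap were each lost without Cisplatin stim replicate 1 (-1.89, -1.66 and -2.34) or PBS stim replicate 1 (-1.69, -1.37 and -2.22). Hist2h3c2 and Hist1h2ap were lost without PBS stim replicate 3 (-1.88 and -2.07), and Hist1h2ap without Cisplatin stim replicate 3 (-1.76). Hist1h1e was lost without any 1 of 5 D21 libraries (-0.83 to -1.07) and by DESeq2 (adjusted p = 0.133), and Hist1h2bc without any 1 of 7 libraries (-0.44 to -0.54).

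In oligodendrocytes 3 of 13 members fell and 1 rose, where 7.49% of genes fell and 7.03% rose. Hist1h1e had 25.3, 98.6 and 77.8 CPM in PBS stim and 24.1, 42.6 and 43.8 in Cisplatin stim (log2 fold change -0.82 ± 0.19 SE, edgeR adjusted p = 0.00494). Hist1h2bc had 233, 374 and 336 CPM and 205, 205 and 244 (log2 fold change -0.49 ± 0.11 SE, edgeR adjusted p = 0.00563). Hist1h4d had 19.2, 88.7 and 49.2 CPM and 12.04, 31.9 and 33.7 (log2 fold change -0.98 ± 0.24 SE, edgeR adjusted p = 0.00780). All 3 were lost without PBS stim replicate 2 (-0.61, -0.41 and -0.56). Hist1h1c went the other way from its H1 relative Hist1h1e. It had 50.5, 73.1 and 63.7 CPM in PBS stim and 324, 162 and 128 in Cisplatin stim, with every cisplatin library above every PBS library (log2 fold change 1.75 ± 0.44 SE, edgeR adjusted p = 0.0103). It was lost without Cisplatin stim replicate 1 (1.00) or PBS stim replicate 3 (1.70), and by DESeq2 (adjusted p = 0.0624). In unstimulated mice the same gene had 62.8, 66.4 and 61.9 CPM in PBS and 18.9, 161 and 142 under cisplatin, and was not called (log2 fold change 0.75 ± 0.41 SE, edgeR adjusted p = 0.303). There the D21 libraries were well above PBS and the D20 library below it, and the gene was called without that D20 library.

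Hist1h1c was also higher in endothelial cells, which line the vessels. It had 60.6, 91.3 and 75.6 CPM in PBS stim and 88.4, 217 and 150.3 in Cisplatin stim (log2 fold change 1.03 ± 0.22 SE, edgeR adjusted p = 0.0112), a call lost without Cisplatin stim replicate 2 (0.78) or PBS stim replicate 3 (0.87). In unstimulated mice it had 82.7, 88.96 and 70.4 CPM in PBS and 79.3, 179 and 141 under cisplatin (log2 fold change 0.66 ± 0.19 SE, edgeR adjusted p = 0.117), which was not called. In both arms the D20 cisplatin library lay near the PBS libraries and the D21 cisplatin libraries above them. Choroid plexus markers summed to 0 to 395 CPM in endothelium of PBS stim mice and 79.2 to 408 in Cisplatin stim, and in oligodendrocytes to 7.07 to 319 and 131 to 376, and their part was not tested. In OPC the 1 call of 11 with stimulation (0.221% of genes were lower) was Hist1h4d, at 30.6, 297 and 166 CPM in PBS stim and 4.28, 49.9 and 87.5 in Cisplatin stim (log2 fold change -1.71 ± 0.34 SE, edgeR adjusted p = 0.00669). It was lost without Cisplatin stim replicate 2 (-1.54) or PBS stim replicate 2 (-1.16).

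In D21 the ribosomal RNA-like share differed by treatment in stimulated mice too. For all 20 lower calls the D21 cisplatin libraries lay below the D21 PBS libraries, from which the calls had in part been made. Here too the count was not made over all genes called lower, so it is not particular to the histone genes. Of the 20, 16 were called in the D21 libraries alone, and Hist2h3c2, Hist2h3c1, Hist1h2ap and Hist1h2bc in astrocytes were not (edgeR adjusted p of 0.0519 to 0.136). The D20 pair, which was also part of the fit, had the same direction for 17. It had the other direction for Hist1h4h in microglia and Hist1h1e in astrocytes, and 0 in both libraries for Hist1h3e in microglia. With the share as a covariate 3 lower calls were kept, Hist2h3c2 and Hist1h2ap in astrocytes and Hist1h2ap in microglia. Astrocytic Hist2h3c2, Hist2h3c1, Hist1h2ap and Hist1h4h were at -2.60, -1.73, -2.74 and -1.25 on the log2 scale with it, as large as in the fit. Hist1h1e and Hist1h2bc in oligodendrocytes were at -0.77 and -0.44, while Hist1h4d was at -0.12 there, -0.37 in microglia and -0.044 in OPC. DESeq2 gave no adjusted p for the first 3 of these astrocytic genes. As the share followed treatment within D21, the loss of the other calls cannot tell the 2 apart. Neither higher call of Hist1h1c was kept with the covariate.

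Stimulation itself was compared within each treatment. In cisplatin-treated mice the groups share libraries with the comparisons above. Hist1h2ap in microglia was lower with stimulation, the 1 call among 93 member tests (1.08%). Of all gene tests, 0.0504% were lower and 0.145% higher. Hist1h2ap had 32.1, 82.6 and 33.6 CPM in Cisplatin nonstim and 8.81, 14.8 and 16.8 in Cisplatin stim (log2 fold change -1.91 ± 0.38 SE, edgeR adjusted p = 0.0423). Its level was 43.1, 45.8 and 44.1 CPM in PBS nonstim and 44.5, 36.5 and 89.5 in PBS stim. So all 3 Cisplatin stim libraries lay below the 9 others. With the replicate number as a block the log2 fold change -1.91 (edgeR adjusted p = 0.0623), and DESeq2 gave an adjusted p of 0.0699, so that neither called it. Microglia with a Mki67 or Top2a UMI numbered 4, 7 and 2 in Cisplatin nonstim and 4, 1 and 0 in Cisplatin stim, and without such cells the log2 fold change was -1.40 and no longer called. The call was also lost without any 1 of replicates 1, 2 and 3 of Cisplatin stim, replicates 1 and 2 of Cisplatin nonstim and replicate 1 of PBS stim, at log2 fold changes of -1.25 to -2.03.

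In PBS mice no member was called between stimulated and unstimulated groups by edgeR or by DESeq2, and 12 of the 93 edgeR tests had an unadjusted p under 0.05. No gene of any kind was called in that comparison (0%). Hist1h4d in microglia, for example, had 28.1, 159 and 176 CPM without and 13.99, 181 and 139.98 with stimulation, and Hist1h1e had 24.8, 100.01 and 113 and 17.8, 101 and 106. The test of whether the cisplatin difference depends on stimulation called no member by edgeR or DESeq2, with 18 unadjusted p-values under 0.05, and 0.0245% of all gene tests (0.0158% higher and 0.00863% lower). The smallest adjusted p was 0.0554 for Hist1h2ap in OPC (log2 difference -3.32 ± 0.68 SE), which had 97.9, 198 and 362 CPM in PBS stim and 21.4, 11.1 and 199 in Cisplatin stim. Hist1h2ap in microglia followed with -2.25 ± 0.47 SE and an edgeR adjusted p of 0.0841. Hist1h1c in microglia had -1.31 ± 0.28 SE and an edgeR adjusted p of 0.105, and was called without Cisplatin stim replicate 3 (-1.81, edgeR adjusted p = 0.0121). Hist2h2aa1 had interaction values of -2.96 in endothelium, -2.45 in choroid plexus, -2.16 in oligodendrocytes and -2.07 in astrocytes on the log2 scale, with edgeR adjusted p-values of 0.0892 to 1.0. None of these passed the threshold in the fit. Other settings did call some. Hist1h2ap in OPC was called with the replicate number as a block (-3.44, edgeR adjusted p = 0.0317), with the ribosomal RNA-like share as a covariate (-3.21, 0.0368) and without any 1 of 5 libraries. Hist2h2aa1 was called in choroid plexus in the D21 set alone (-2.44, 0.0488), and Hist1h2ap in microglia without cells that carry a Mki67 or Top2a UMI (-2.18, 0.0240). Without the 4 D21 PBS libraries 3 interactions were called, of Hist1h2ap in OPC (-2.85) and of Hist2h2aa1 in astrocytes (-3.39) and oligodendrocytes (-3.29). In the fit Hist1h2ap in OPC thus lay near the threshold, while Hist2h2aa1 in astrocytes (edgeR adjusted p = 0.428) and choroid plexus lay far from it. Which interactions were called depended on the setting.

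The calls can be read by transcript end. The 23 members that run more than 100 bases past the stem-loop gave 61 tests, with 11 lower and 0 higher without stimulation and 12 lower and 2 higher with it. The 23 that end within 100 bases gave 21 tests, with 3 lower and 2 higher, then 5 lower and 0 higher. Those with no stem-loop gave 11 tests, with 1 lower and then 3 lower. Of all gene tests 0.707% and 1.73% were lower, and 0.937% and 2.16% higher. The tests came from 16, 5 and 3 members in that order, so a gene recurs across types. As the limit of 100 bases was chosen after the values were seen, the groups are described and not compared. Hist1h4d, Hist1h1e and Hist1h3e, whose annotated messages run on, and Hist1h4h, whose message stops after the stem-loop, all fell in microglia.

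The pathway that makes and ends these messages had few calls. Of 22 genes listed for histone mRNA transcription and 3' end processing, 19 were tested, in 131 tests. Of these tests, 20 without and 24 with stimulation had an unadjusted p under 0.05 for cisplatin against PBS (edgeR). In unstimulated mice 1 rose under cisplatin and none fell: Slbp, the stem-loop binding protein, in oligodendrocytes (log2 fold change 0.68 ± 0.20 SE, edgeR adjusted p = 0.0427). In stimulated mice Slbp rose in microglia (log2 fold change 0.59 ± 0.15 SE, edgeR adjusted p = 0.0273), and 3 tests fell. These were Npat, the activator of histone genes, in oligodendrocytes (log2 fold change -0.64 ± 0.16 SE, edgeR adjusted p = 0.0114), the cap-binding gene Ncbp2 there (log2 fold change -0.52 ± 0.15 SE, edgeR adjusted p = 0.0214), and the cleavage and polyadenylation gene Fip1l1 in neurons (log2 fold change -1.29 ± 0.33 SE, edgeR adjusted p = 0.0427). The list's 1 of 131 and 4 of 131 lay below the share called among all gene tests, 1.64% and 3.89%.

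Calls among the replication-independent variants were all in oligodendrocytes. Of 11 listed genes in 83 tests, H2afx, whose product is phosphorylated at DNA breaks, rose in oligodendrocytes without stimulation (log2 fold change 0.59 ± 0.17 SE, edgeR adjusted p = 0.0443). With stimulation it rose there again (log2 fold change 0.64 ± 0.21 SE, edgeR adjusted p = 0.0419), with H3f3b, an H3.3 gene (log2 fold change 0.45 ± 0.11 SE, edgeR adjusted p = 0.0102), and H1f0, the H1 of resting cells (log2 fold change 0.66 ± 0.20 SE, edgeR adjusted p = 0.0348). None fell in either comparison, and 17 and 19 of the 83 edgeR tests had an unadjusted p under 0.05 without and with stimulation. Over all tested types, 1 and 3 of 83 tests stand beside the 0.937% and 2.16% of all gene tests that were higher. In oligodendrocytes, where all these calls lay, at most the 11 listed genes were tested, and 3.33% and 7.03% of genes were higher. The 83 tests are thus not the base for the share in that type. Of 18 histone chaperones, 16 were tested in 118 tests and none was called by edgeR in any of the 5 comparisons, with 6 and 13 unadjusted p-values under 0.05 in the comparisons without and with stimulation. Of 22 genes of S phase and cycling cells, 15 were tested in 57 tests and none was called, with 7 and 2 such p-values. Of all gene tests 1.64% and 3.89% were called in these 2 comparisons. At such shares few calls would fall in 118 or 57 tests, so their absence does not show that these genes were unchanged. Of 9 RNAs without a poly(A) tail only Malat1 was tested, and it was lower in microglia of stimulated mice (log2 fold change -0.41 ± 0.09 SE, edgeR adjusted p = 0.0101). The 3 ribosomal RNA-like transcripts gave 18 lower calls in 27 tests without stimulation and 19 with it, against 0.707% and 1.73% of all gene tests.

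The upstream sequences of the 2 H1 and 2 H4 genes called most often are shown because these members, all on chromosome 13, differ in their promoter elements. They are the 250 bases before each start in RefSeq (GRCm38.p6), 5' to 3' on the gene's strand, with capitals at matches to the motifs named next.
Hist1h4d: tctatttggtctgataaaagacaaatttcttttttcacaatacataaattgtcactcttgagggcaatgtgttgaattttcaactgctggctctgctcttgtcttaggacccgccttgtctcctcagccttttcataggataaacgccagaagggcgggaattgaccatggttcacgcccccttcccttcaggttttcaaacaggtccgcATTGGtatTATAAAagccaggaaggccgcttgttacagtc
Hist1h4h: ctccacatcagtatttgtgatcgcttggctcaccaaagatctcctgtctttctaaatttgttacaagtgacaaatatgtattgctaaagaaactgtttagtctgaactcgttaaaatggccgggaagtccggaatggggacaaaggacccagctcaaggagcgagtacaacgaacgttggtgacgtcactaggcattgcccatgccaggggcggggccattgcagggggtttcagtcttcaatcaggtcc
Hist1h1e: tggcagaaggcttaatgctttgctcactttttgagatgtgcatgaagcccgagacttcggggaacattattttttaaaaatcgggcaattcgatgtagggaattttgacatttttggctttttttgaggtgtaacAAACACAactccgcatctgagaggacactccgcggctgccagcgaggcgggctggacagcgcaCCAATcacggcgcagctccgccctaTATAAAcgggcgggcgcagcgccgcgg
Hist1h1c: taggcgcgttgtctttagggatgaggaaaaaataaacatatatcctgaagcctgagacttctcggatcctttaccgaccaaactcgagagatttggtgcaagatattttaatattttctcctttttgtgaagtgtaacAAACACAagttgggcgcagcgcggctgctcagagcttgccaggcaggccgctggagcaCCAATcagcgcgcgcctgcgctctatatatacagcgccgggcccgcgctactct
The stretches are chr13:23581318-23581567 for Hist1h4d, chr13:23530794-23531043 for Hist1h4h and chr13:23738557-23738806 for Hist1h1c, all on the + strand, and chr13:23622559-23622808 on the - strand for Hist1h1e. Motifs were searched on both strands over 250 bases before and 50 after each start, in the 61 members with an entry. TATAAA was found in 35 of the 61 members, against 13.6% of all 32851 promoters, and CCAAT in 52, against 37.4%. CCAAT was present in all 49 H1, H2A, H2B and H3 promoters and in 3 of 12 H4 promoters. ATTTGCAT, the octamer, was found in 7 of 17 H2A and 6 of 16 H2B promoters and in no other class, against 1.74% of all promoters. AAACACA, the H1 box, was found in 5 of 6 H1 promoters and 4 others, against 7.18%. Hist1h1c and Hist1h1e share the AAACACA and CCAAT elements and moved in opposite directions in oligodendrocytes with stimulation. Hist1h4d has a CCAAT match on the reverse strand and a TATAAA, and Hist1h4h holds none of the 4 motifs. Such matches are letters in a window and are not measured binding.

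H2A and H2B genes often lie head to head with a shared upstream stretch. There were 12 such pairs, with 176 to 306 bases between the starts. Their UMI totals could differ widely, as for Hist1h2ac with 620 and Hist1h2bc with 43164 (251 bases), and for Hist1h2ap with 4087 and Hist1h2br with 122 (236 bases). In Hist2h2ac and Hist2h2be (239 bases) they were close, at 625 and 592. Hist1h2ae, with 1742 UMIs, faced Hist1h2bg, with 199, across 176 bases. A shared upstream stretch therefore did not come with equal captured counts in 3 of the 4 pairs named.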

How the data were processed

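The authors deposited a table of UMI counts per gene and cell from single-cell RNA-seq of 12 hippocampal libraries, with their cell type names, and a doublet score for each cell and a mean score for each gene, neither of which entered a test. Per the submitters' processing notes, Cell Ranger 5.0.0, Scanpy and mm10 were used, and the annotation release and the treatment of multimapping reads are not given in the sources used here. No doublet caller was run, since the highest deposited doublet score was 0.0970, and all deposited cells were kept. No per-sample column was left unused.

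Sums of counts were taken over the cells of a type in each library (libraries with at least 10 cells of it, types with at least 2 libraries in each group) and tested with edgeR 4.0.16 in R 4.3.3 (TMM, filterByExpr, quasi-likelihood test, terms for group and for the D20 or D21 set). Progenitors, ependymal cells and fibroblasts were not tested. Adjustment was by Benjamini-Hochberg within type and comparison, at 0.05. The SE beside an edgeR log2 value was derived from the test, as the absolute log2 value divided by the square root of its F statistic. DESeq2 1.42.0 was an alternative. The script was checked on simulated data.

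Members and gene lists were chosen with earlier results of these data known. Values in every library are given for the 3 members with the most UMIs in each class where they bear on a comparison (their range and median otherwise), and for up to 4 called members with the smallest adjusted p per type, comparison and direction. Up to 3 called genes are named per list. Over pooled types, same-numbered PBS nonstim and PBS stim libraries deviated together (r = 0.456, 0.285 and 0.278 over genes). The set difference was not removed from these deviations, and replicate 1 is D20 in every group, so such r cannot show a pairing by number. A library was most alike its own number in 4 of 6 cases between the PBS groups. This was so in 3 of 6 between the unstimulated groups, 3 of 6 between the stimulated groups and 2 of 6 between the cisplatin groups. Within single types every r was over 0.1 also between the cisplatin groups and between the unstimulated groups in microglia (lowest r 0.177 and 0.118) and oligodendrocytes (0.163 and 0.187), and between the stimulated groups in microglia (0.107). These correlations rest on the values and not on the labels. Stem-loops came from GENCODE M21 transcripts, promoters from RefSeq (GRCm38.p6), where 61 of 67 members matched by symbol or synonym.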

Additional observations from a re-analysis of the deposited data

How the results depend on the processing

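The counts of member calls (17 for cisplatin against PBS without stimulation, 22 with it, 1 for stimulation under cisplatin, 0 for stimulation under PBS and 0 for the interaction) depended on several choices, and the cause was not tested except where fewer libraries entered. The share of all genes called was not counted in these settings or with 1 library left out. A change in these counts therefore cannot be read as particular to the histone genes. DESeq2 gave 9, 11, 0, 0 and 0 in that order, with an adjusted p for 44, 64, 87, 93 and 88 of the 93 tests. With no filter on low counts they were 30, 38, 11, 4 and 8, but that fit gave some very small adjusted p-values (1.12e-16 for stimulation under cisplatin and Hist1h2ap in microglia), so these counts are to be read with care. With the ribosomal RNA-like share as a covariate they were 0, 5, 1, 0 and 1. In the D21 set alone they were 33, 32, 1, 0 and 1. Without the 4 D21 PBS libraries they were 0, 4, 5, 0 and 3, with 1 PBS library in each PBS group, whose spread was taken to be that of the others. Without cells over 10% mitochondrial UMIs they were 19, 20, 0, 0 and 0. Without ribosomal RNA-like and mitochondrial genes they were 18, 22, 1, 0 and 1, and with DESeq2's size factors in edgeR 18, 22, 1, 0 and 0. Without cells with Mki67 or Top2a, an alternative chosen after seeing the data, they were 15, 23, 0, 0 and 1.

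Leaving out 1 library at a time gave 6 to 24 calls without stimulation (6 without Cisplatin nonstim replicate 2 and 11 without its replicate 3) and 13 to 26 with it (13 without PBS stim replicate 3, 14 without PBS stim replicate 2 or Cisplatin stim replicate 2). It gave 0 to 1 for stimulation under cisplatin (0 without replicate 1 of Cisplatin nonstim or replicate 1 or 2 of Cisplatin stim), 0 to 2 under PBS (2 without PBS nonstim replicate 3) and 0 to 3 for the interaction (3 without PBS stim replicate 2). Of the 40 named calls, 11 held with every single library left out and 4 with the covariate. DESeq2 called 18 of them, did not call 10 and gave no adjusted p for 12, which count as neither. The number that held in every setting fitted was 0.

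Fold changes reversed without the 4 D21 PBS libraries for Hist1h4h (log2 2.03), Hist1h1d (0.53), Hist1h4d (0.41) and Hist1h4c (0.13) in microglia and Hist1h1e (0.85) in astrocytes, all with stimulation. These rest on 1 PBS stim library, with 1, 1, 11 and 3 UMIs of the microglial genes among 786188 and 7 UMIs of Hist1h1e among 1158832, so no direction is read from them. Hist1h1c in endothelium without stimulation, not called, became -0.015 there and -0.083 with the covariate.

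With the replicate block the counts were 17, 21, 0, 0 and 1, so that the calls of Hist1h2ap in microglia under cisplatin (log2 -1.91, edgeR adjusted p = 0.0623) and of Hist1h1e in astrocytes with stimulation (-1.03, 0.0552) were lost and 1 interaction was called, and it changed no other named call. Outside the PBS groups correlations pooled over types were 0.304, 0.0711 and 0.0761 between the cisplatin groups, 0.0881, 0.0940 and -0.0267 between the unstimulated groups and 0.0483, -0.0124 and 0.0335 between the stimulated groups. Depth limits the low members: 28 of 67 had under 100 UMIs in all.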
